A study of Arabidopsis thaliana with 121 samples.

Results

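The 181 transposable elements (TEs) described here were already transcribed in wild-type Arabidopsis thaliana leaves, and their transcripts were not raised by 4 times or more when DDM1 was lost. They were taken from the first of 2 sets of 3′-tag mRNA libraries (batch A, 39 libraries). Of the 31188 TEs in the count tables, 970 had at least 10 counts in at least 3 batch A libraries, and 308 of those also had at least 4 counts in 1 or more of the 3 wild-type (Col_0) libraries. The ratio of the mean CPM (counts scaled to a common library total) over 7 ddm1 single-mutant libraries to the mean over the 3 Col_0 libraries was under 4 for 181 of the 308 and at or above 4 for the other 127, which are called the raised TEs below. The members were thus chosen by the values of those 10 libraries and, through the count filter, by all 39 batch A libraries. The values of the 10 libraries are given as a description, and no test is drawn from them.

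Most TEs in a plant genome are kept silent. Cytosine methylation in the CG context is copied after replication by MET1 with VIM1, non-CG methylation is kept by CMT2, CMT3 and the RNA-directed pathway, and the nucleosome remodeller DDM1 opens compact heterochromatin to these enzymes. CDCA7 proteins carry a zinc-finger domain and work with remodellers of the DDM1 family. In human they are known as partners of HELLS, the relative of DDM1, and Arabidopsis has the paralogs CDCA7α and CDCA7β. A TE outside that control can be read from its own promoter or lie within or beside a gene whose transcript runs into it, and 3′-tag counts alone do not separate these origins.

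All plants were in the Col-0 background. In batch A each library pooled 2 leaves from each of 3 plants at 31 days. It held Col_0 (3 libraries) and the ddm1-2 allele as first-generation homozygotes (F2_ddm1, 2 libraries), second generation (ddm1_2_G2, 2) and later generation (ddm1_2_G5, 3). Its cdca7 single mutants were cdca7a_1 (3), whose T-DNA lies in the CDCA7α promoter and which the study describes as raising its transcript, cdca7a_2 (2), with a T-DNA in the coding sequence, and the CRISPR alleles cdca7b_1 (3) and cdca7b_2 (2). The double mutants were cdca7ab_1 (2; the cdca7a_2 T-DNA with a CRISPR allele of CDCA7β) and cdca7ab_2 (2; CRISPR alleles of both genes). Mutations of the same genes together with ddm1-2 were held by ddm1_cdca7a_1 (2), F2_ddm1_cdca7a_2 (2), ddm1_cdca7b_1 (3), ddm1_cdca7b_2 (3), ddm1_cdca7ab_1 (3) and ddm1_cdca7ab_2 (2). Of these, the cdca7a lines carry the same T-DNA insertions as their counterparts with DDM1, whereas the cdca7b and cdca7ab lines carry other CRISPR alleles, made separately in ddm1-2 plants, and share only the gene and the line number. The ddm1 genotypes also differ in how many generations they had been homozygous. Batch B was the second set, of 82 libraries, each from 1 leaf of 1 plant at 28 days: WT (5), cdca7_a (3), cdca7_b (6), cdca7_ab (4), and groups that carried CDCA7α transgenes as primary transformants and were labelled cdca7_a or cdca7_ab. Per the study, the transgene entered cdca7α mutant plants before both endogenous genes were lost, and was not added to an established double mutant. Those described TE by TE are cdca7_ab_CDCA7 (5), with the full-length reference transgene, cdca7_ab_dNter (6) and cdca7_ab_dCter (7), with an end of the protein removed, cdca7_ab_C183S_C209S (7) and cdca7_ab_R35A_N42L (6), with substitutions, and cdca7_ab_p6966 (5), cdca7_ab_p6966_d4nt (2) and cdca7_ab_p6966_d26nt (7), in which the promoter came from another accession (p6966), intact or with a short deletion. Ranges over all batch B groups also take in the cdca7_a groups cdca7_a_CDCA7 (3), cdca7_a_p6966 (5), cdca7_a_p6966_d4nt (4) and cdca7_a_p6966_d26nt (5). They also take in cdca7_ab_CDCA7_no_YFP (2), labelled as without YFP. The study chose transformed seeds by a fluorescent seed-coat reporter and describes sister plants that lacked the transgene. This group may be those plants, so it is not taken here as carrying the transgene. Plants of 1 transgene group need not share an insertion. The study could not assess the N-terminal truncation (cdca7_ab_dNter), because that transgene was not expressed.

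Library totals ran from 2087927 to 4439892 counts in batch A and from 1194658 to 5206149 in batch B, and the plastid share was 5.55% to 43.9% and 4.39% to 22.9%. At the median batch A total of 3635177 counts, 1 CPM is between 3 and 4 counts, so members near 1 CPM rest on few molecules. DDM1 itself had 0 to 5 counts in every library and was not tested, so the ddm1 label could not be checked on its own transcript. Markers of flower and root (AP3, AG and PIN2) had at most 11 counts in any library. The seed storage genes CRA1 and SESA3 reached 2407 and 1408 counts in cdca7_ab_C183S_C209S replicate 4.

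The ddm1 to Col_0 ratios of the 308 TEs fell into 2 bodies with few TEs between them. Among the members 5 had a ratio under 0.25, 27 lay between 0.25 and 0.5, 100 between 0.5 and 1, 42 between 1 and 2, and only 7 between 2 and 4. Beyond the threshold there were 4 TEs between 4 and 8, 5 between 8 and 16 and 118 at 16 or more. In whole leaves fewer cells of a type and less RNA per cell cannot be told apart in any of these values. The median ratio was 0.733 for the members and 114 for the raised TEs. The threshold of 4 therefore lay in the sparse stretch, and 132 of the 181 members had a lower mean in ddm1 than in Col_0. The rule itself favours such ratios, as it asked for counts in Col_0 and dropped high ratios. In the comparison of ddm1 cdca7 with cdca7 libraries given below, 103 of the 181 were lower, against 9472 of all 17943 features.

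**Figure D1:**
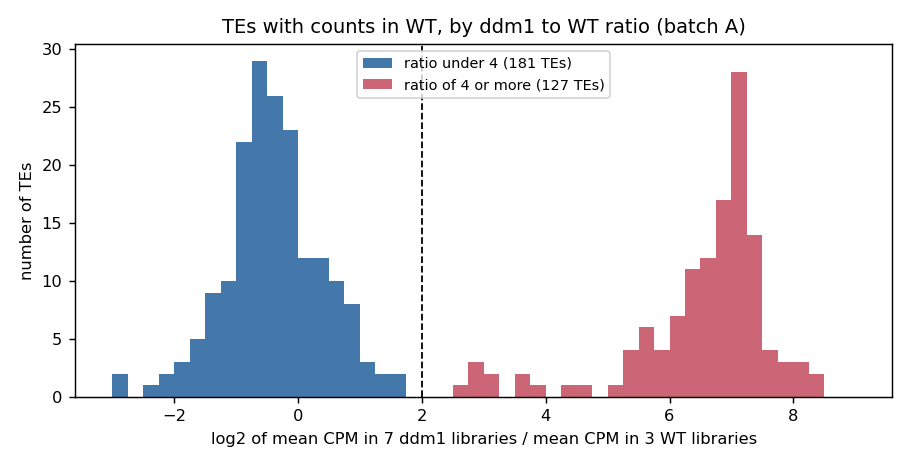
Number of TEs (y axis) by the ratio of mean CPM in the 7 ddm1 single-mutant libraries to mean CPM in the 3 Col_0 libraries (x axis, as log2), for the 308 TEs transcribed in Col_0. The dashed line marks the threshold of 4: 181 TEs lie below it with a median of 0.733 and 127 above it with a median of 114.

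The TEs nearest to the threshold show how thin the values there were. Just inside it lay AT1TE83925 at a ratio of 3.14, from 1.66 CPM in Col_0 to 5.22 in ddm1, on 1 to 9 counts per Col_0 library. AT3TE43615 had 2.88 and AT2TE29775 had 2.67, and AT3TE43615 had 0 counts in 1 of the 3 Col_0 libraries. Just outside lay AT2TE41175 at 5.93, from 0.681 to 4.04 CPM, AT1TE71775 at 6.82, from 37.0 to 252 CPM, and AT3TE58120 at 7.12, from 1.43 to 10.2 CPM. The lowest ratios belonged to AT4TE10320 at 0.132, AT1TE91400 at 0.141 and AT1TE80030 at 0.183, so these members were at least 5 times lower in the ddm1 mean than in the Col_0 mean.

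Summed over the 181 members, transcription in Col_0 was 1708, 2565 and 3353 CPM in the 3 libraries (2542 ± 823, SD, n = 3). The ddm1 libraries had sums of 1091 to 1651 CPM in F2_ddm1, 1589 to 1838 in ddm1_2_G2 and 1524 to 2362 in ddm1_2_G5. These ranges overlap Col_0 except in F2_ddm1. With plastid and mitochondrial transcripts left out of the library total, the sums were 2335 to 3757 CPM in Col_0, 1787 to 1805 in F2_ddm1, 1782 to 2078 in ddm1_2_G2 and 1887 to 2630 in ddm1_2_G5, and ddm1_2_G5 alone overlapped Col_0. The share of TE counts, which the rule itself pulls apart, was also lower: the members held 71.2% to 86.2% of all sense TE counts in Col_0 and 3.90% to 5.69% in the ddm1 single mutants while the summed raised TEs went from 200 to 291 CPM to 13414 to 29037 CPM. In both cdca7 double mutants of batch A the share was 23.6% to 28.4%.

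Batch B, which the rule did not use, held no ddm1 mutants, so only the WT levels of members and raised TEs could be read there. Raised TEs could pass the count filter of the rule through ddm1 libraries, so a lower WT level in them follows in part from the choice. All 5 WT plants had at least 1 count for 146 of the 181 members but for only 8 of the 127 raised TEs. None of the 5 had a count for 2 members and for 67 raised TEs. The median level in WT was 4.38 CPM for the members and 0 for the raised TEs, against 4.26 and 1.12 CPM in batch A. By level, 50 members had a WT mean over 10 CPM in batch B, 98 lay between 1 and 10 CPM and 33 below 1 CPM. The mean levels in the 2 sets of wild type were within 2-fold for 118 members. Col_0 exceeded WT by more than 4 times for 15 members and WT exceeded Col_0 by as much for 3, a difference of batch, plant number and age that cannot be told apart.

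The members were found on every chromosome that TE identifiers name, with 46 on chromosome 3, 42 on chromosome 1, 35 on chromosome 4 and 29 each on chromosomes 2 and 5. Their counts reached wide coverage: 124 had a count in all 39 batch A libraries, 100 in all 82 batch B libraries and 92 in all 121. For 91 members the estimated counts were fractional in 1 or more libraries, meaning that reads were divided between features, and for 90 they were whole in all. Reads from the opposite strand were seldom recorded. In the 5 WT plants of batch B, 123 members had no antisense value above 0, and a TE missing from the antisense values would be counted among them. There were 11 members above 0 in all 5, among them AT2TE29775, AT2TE37325 and AT4TE74230.

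The 12 members with the highest WT level in batch B held 48.8% of all member counts there. AT3TE37080 led with 292, 232, 203, 223 and 224 CPM in the 5 WT plants (235 ± 33.7, SD, n = 5). AT4TE42895 followed with a mean of 122 ± 20.5 CPM, AT2TE37325 with 112 ± 43.9 and AT4TE74230 with 110 ± 25.4. The means of these 3 lay closer together than their SDs, in TEs read in the same 5 plants, and no test between TEs was made. The lowest AT3TE37080 plant was above the highest plant of each of the 3. AT2TE16945 had a mean of 94.8 CPM, AT4TE29780 of 84.0, AT3TE69475 of 73.7, AT3TE73180 of 68.7, AT1TE66735 of 66.4, AT4TE42860 of 64.2, AT3TE77415 of 53.5 and AT3TE07760 of 50.7. Because 3′-tag libraries give 1 tag per transcript, these are levels per transcript end and are not divided by length.

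**Figure D2:**
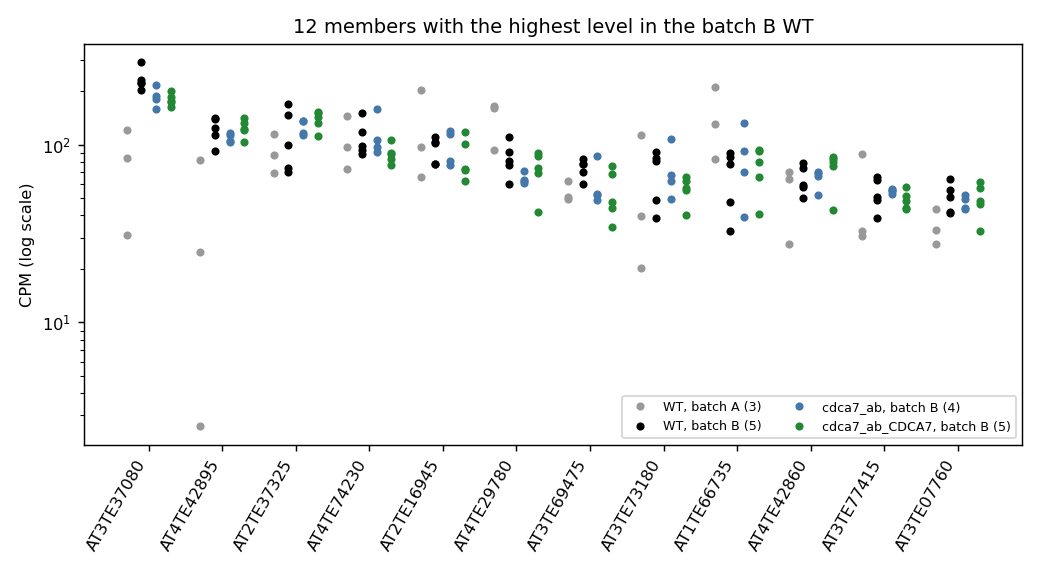
CPM (y axis, log scale) of the 12 members with the highest WT mean in batch B (x axis), 1 point per library, for Col_0 of batch A (3 libraries, grey) and for WT (5, black), cdca7_ab (4, blue) and cdca7_ab_CDCA7 (5, green) of batch B. AT3TE37080 sits highest at 203 to 292 CPM in WT, the batch B points of each TE lie close together, and the Col_0 points of AT4TE42895 spread from 2.60 to 81.8 CPM.

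The highest genotype mean was 1.35 to 2.91 times the lowest for each of the 12 over all batch B groups. In batch A the same ratio ran from 2.19 for AT3TE69475 to 13.3 for AT4TE42895, which varied within genotypes too: its 3 Col_0 libraries had 2.60 to 81.8 CPM. The batches are not alike in genotype: batch A holds ddm1 mutants, and F2_ddm1_cdca7a_2, a group of 2 libraries of which replicate 3 had a plastid share of 37.8%, gave the lowest mean for 9 of the 12.

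Whether DDM1 loss acts on the members could be asked again in libraries that the ratio did not use and that entered only the count filter. The 15 libraries of the 6 ddm1 cdca7 genotypes were compared with the 14 libraries of the 6 cdca7 genotypes with the same gene or genes lost, and a feature was called when its adjusted p did not exceed 0.1 and it differed by 1 log2 unit or more (edgeR quasi-likelihood test, Benjamini-Hochberg adjustment). Of the 181 members, 7 were higher and 14 were lower without DDM1. Within 1 log2 unit of no change lay 154 members (85.1%), against 88.2% of all features. The background over all 17943 features tested was 10.8% called, 7.81% higher and 2.99% lower, so the 11.6% of members called was near it in total but not by direction. The 3.87% of members higher lay under their background and the 7.73% lower above theirs, in a list from which the rule had removed TEs that were higher in ddm1. That background of higher features was itself made up largely of TEs, which gave 773 of the 1402 features called higher. The 3.87% therefore cannot be read as under the share among features other than TEs. For the cdca7b and cdca7ab lines DDM1 loss and the change of CRISPR allele cannot be told apart. The median log2 fold change was -0.09 for the members and -0.03 for all features. Of the raised TEs, 125 of 127 were higher, with a median of 6.22. They could pass the count filter through the libraries in which they were high. Their calls in this and the other batch A comparisons are thus description.

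The members' median change was small on each background taken alone, but single members moved more. The members' median log2 difference with DDM1 loss was -0.05 on cdca7a_1, -0.22 on cdca7a_2, -0.05 on cdca7b and -0.05 on cdca7ab. Over all features the medians were 0.0001, -0.06, -0.03 and 0.006. Of the 181 members, 134, 123, 141 and 146 lay within 1 log2 unit, and the others moved further. The share of all features within 1 log2 unit was not computed per background. On the cdca7ab background, where the raised TEs were already transcribed, their median was 3.68, against 7.58 on cdca7b. Leaf genes moved in the same comparison. The photosynthesis genes RBCS1A, LHCB1.3 and LHCB1.1 rose by 1.27, 1.19 and 1.59 (adjusted p for LHCB1.1 0.0719 by the edgeR quasi-likelihood test with Benjamini-Hochberg adjustment), while RCA at 0.28 and GAPA at 0.75 were not called. The 5 leaf genes summed to 9706 to 27270 CPM without and 16345 to 48247 CPM with the ddm1 allele, and their part in the members' changes was not tested.

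**Figure D3:**
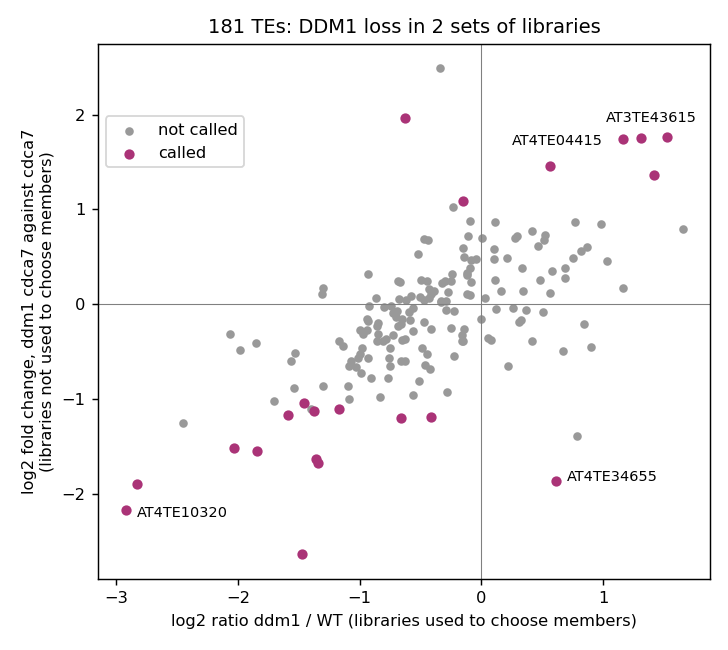
Log2 ratio of ddm1 to Col_0 in the libraries used for the ratio (x axis) against the log2 fold change with DDM1 loss on cdca7 backgrounds (y axis). The libraries of the y axis were not used for the ratio and entered only the count filter. There is 1 point for each of the 181 members, with the 21 called members in purple. The points follow each other at r = 0.626, and AT4TE34655 lies apart at a ratio above 1 and a log2 fold change of -1.87.

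The order among the members repeated in the second set of libraries. Of the 32 members with a ratio under 0.5, 30 had a negative log2 difference in the new comparison, 11 were called lower and none higher, and the median was -0.88. The 100 members between 0.5 and 1 had a median of -0.08, and the 42 between 1 and 2 had a median of 0.27. All 7 members between 2 and 4 were positive, with 4 called higher and a median of 1.36. Across the 181 members the 2 log2 values had a Pearson r of 0.626 and a Spearman rho of 0.638, as a description over TEs that share the batch, the tissue and the counting.

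By level the best supported of the higher members was AT4TE04415. Its counts were fractional in most libraries. The 14 cdca7 libraries had 3.63, 6.17 and 17.3 CPM as the lowest, the median and the highest, and the 15 ddm1 cdca7 libraries had 6.16, 23.9 and 31.8. The groups overlapped in few libraries, and the log2 fold change was 1.74 (SE 0.12, adjusted p = 1.25e-12 by the edgeR quasi-likelihood test with Benjamini-Hochberg adjustment). AT3TE43615 went from 0.275, 2.59 and 3.77 CPM to 2.26, 5.64 and 8.59, a difference of 1.77 (SE 0.27, adjusted p = 1.09e-05, same test). Both were also among the members with a ratio above 2 in the libraries that chose them.

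AT4TE25350 and AT4TE21900 were called on thinner counts. AT4TE25350 had 0 to 2.27 CPM in the cdca7 libraries and 0 to 6.26 with the ddm1 allele. Its log2 fold change of 1.97 (SE 0.51, adjusted p = 0.00501 by the edgeR quasi-likelihood test with Benjamini-Hochberg adjustment) became 1.22 with an adjusted p of 1 without F2_ddm1_cdca7a_2 replicate 2. AT4TE21900 had 0 to 3.5 CPM in the former and 0 to 10.4 CPM in the latter. Its log2 fold change of 1.75 (SE 0.57, adjusted p = 0.0229, same test) fell to 0.35 with an adjusted p of 0.952 without F2_ddm1_cdca7a_2 replicate 3, the library at 10.4 CPM, and it was no longer called without ddm1_cdca7a_1 replicate 1 either (1.43, adjusted p = 0.233). The call thus rested on single libraries in both cases.

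Among the lower members AT4TE34655 kept its call in every alternative. The 14 cdca7 libraries had 1.1, 4.39 and 8.79 CPM as the lowest, the median and the highest, and the 15 ddm1 cdca7 libraries had 0, 0.708 and 3.16. In the cdca7b lines the values were 5.50, 5.03, 8.79, 3.5 and 5.34 CPM, all above the 0.339 to 2.08 CPM of the 6 ddm1 cdca7b libraries. The log2 fold change was -1.87 (SE 0.38, adjusted p = 0.00045 by the edgeR quasi-likelihood test with Benjamini-Hochberg adjustment). In the libraries that chose it the mean was instead higher in ddm1 than in Col_0, at a ratio of 1.53, with 0.974 to 2.27 CPM in Col_0 and 0.344 to 6.93 in ddm1. In batch B it had 0.286 to 3.35 CPM in WT.

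AT4TE32740 and AT1TE91400 were lower with DDM1 loss on few counts. AT4TE32740 had 0 counts in 5 of the 14 cdca7 libraries and in 9 of the 15 ddm1 cdca7 libraries, and the highest values were 5.68 and 3.09 CPM. Its fitted log2 fold change of -2.64 (SE 0.96, adjusted p = 0.0463 by the edgeR quasi-likelihood test with Benjamini-Hochberg adjustment) lost its call (adjusted p = 1) without cdca7ab_1 replicate 3, without cdca7ab_2 replicate 3 or without cdca7b_1 replicate 1. AT1TE91400 had 0 to 2.99 CPM and 0 to 2.58 CPM, with 1 and 7 libraries at 0, and its log2 fold change of -1.90 (SE 0.79, adjusted p = 0.0802, same test) lost its call in 12 of 29 fits that left out 1 library. In batch B it was more abundant, with 9.58 to 29.99 CPM in WT and 2.38 to 17.6 CPM in cdca7_ab.

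Of the 12 most abundant members, AT4TE29780 and AT4TE42860 were called lower with DDM1 loss. AT4TE29780 had 52.3, 118 and 200 CPM as the lowest, the median and the highest of the 14 cdca7 libraries and 10.1, 49.5 and 77.5 CPM in the 15 ddm1 cdca7 libraries. Its log2 fold change was -1.04 (SE 0.20, adjusted p = 0.000225 by the edgeR quasi-likelihood test with Benjamini-Hochberg adjustment), so that its call turns on a fold just past the limit of 1: in 9 of the 29 fits that left out 1 library it was -0.92 to -0.99 and not called. AT4TE42860 had 15.8, 35.8 and 127 CPM and 4.74, 16.5 and 63.5 CPM, or -1.12 on the log2 scale (SE 0.38, adjusted p = 0.0278, same test). Its call was lost without cdca7a_1 replicate 1 (-0.98), without cdca7a_2 replicate 1 (-0.88) or without cdca7ab_1 replicate 2 (-0.81). AT2TE16945, in contrast, was 0.78 higher on the log2 scale (SE 0.14, adjusted p = 7.88e-05, same test), under the size needed for a call.

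Of the 21 members called, 6 were called in all 37 alternatives computed for this comparison. They were AT3TE43615 and AT4TE04415, which were higher, and AT3TE76625, AT4TE33010, AT4TE34655 and AT5TE31350, which were lower. The members AT3TE76625 (-1.51), AT4TE33010 (-1.20) and AT5TE31350 (-1.55) were outside the naming rule and are given because they completed this count. Without the libraries in which plastid transcripts took over 30% of the counts, 9 members were higher and 12 lower, and 15 of the 21 calls were shared. Of the members named above, AT4TE21900 (0.39), AT4TE29780 (-0.90), AT4TE42860 (-1.01) and AT1TE91400 (-1.76) were not called then.

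The cdca7 double mutants were compared with the cdca7b single mutants in batch A, to ask what loss of CDCA7α adds for the members where CDCA7β is already lost and DDM1 is present. The CRISPR alleles of CDCA7β also differ between these lines. Of the 181 members, 4 were higher and 2 lower, or 3.31% against a background of 4.46% (2.41% higher and 2.05% lower) over all features. Of the raised TEs, 86 of 127 were higher. The members' median log2 fold change was 0.04 and that of the raised TEs 3.07.

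AT4TE10320 was the member that moved most. Its counts were whole in every library, and no antisense signal was recorded in the WT plants. The cdca7b lines had 9.85, 12.6, 12.1, 12.2 and 17.6 CPM, on 29 to 46 counts. The cdca7ab lines had 0, 0.319, 0.676 and 0.229 CPM, on 0 to 3 counts. The 2 groups did not overlap, and the fitted log2 fold change was -4.93 (SE 0.55, adjusted p = 2.37e-07 by the edgeR quasi-likelihood test with Benjamini-Hochberg adjustment). The cdca7b libraries also lay above the 0.974 to 8.77 CPM of Col_0, and no test against Col_0 was made in batch A. In the cdca7a lines it stayed between 3.96 and 6.33 CPM, within the range of Col_0. All 7 ddm1 single-mutant libraries had 0.344 to 1.33 CPM and all 15 ddm1 cdca7 libraries 0 to 0.942 CPM, so the TE was near 0 in each genotype without DDM1 and in both double mutants. The lowest Col_0 library, at 0.974 CPM, lay within the range of the ddm1 single mutants, and the rule used the values of both. Its DDM1-loss difference over the cdca7 backgrounds was -2.17 (SE 0.48, adjusted p = 0.00134, same test), but without cdca7ab_1 replicate 3, after which the 1 library left in that genotype had 0 counts, it was -1.80 with an adjusted p of 1.

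AT4TE04415 moved the other way. The cdca7b lines had 3.63, 3.63, 5.85, 4.90 and 5.71 CPM and the cdca7ab lines 17.3, 16.8, 5.39 and 9.35. The groups overlapped through cdca7ab_2 replicate 1, the library in which plastid transcripts took 43.9% of the counts. The log2 fold change was 1.71 (SE 0.22, adjusted p = 4.56e-06 by the edgeR quasi-likelihood test with Benjamini-Hochberg adjustment). Both AT4TE10320 and AT4TE04415 were called in all 17 alternatives computed for this comparison, and none of the other 4 called members was.

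The other 4 were nearer to the limits. AT2TE12510 was lower in the double mutants, with 4.27, 36.1, 5.41 and 11.9 CPM against 31.6, 55.0, 56.5, 50.4 and 43.1 in cdca7b, a log2 fold change of -1.48 (adjusted p = 0.0216 by the edgeR quasi-likelihood test with Benjamini-Hochberg adjustment). Its adjusted p was 0.141 without cdca7ab_1 replicate 2, 0.102 without cdca7ab_2 replicate 3 and 0.114 without cdca7b_2 replicate 2. AT1TE66735 was higher by 1.12 (adjusted p = 0.0441, same test), from 39.5 to 50.2 CPM in cdca7b and from 25.5 to 140 CPM in cdca7ab, but 83.5 to 212 CPM in Col_0 lay above both cdca7b lines. AT2TE20870 was higher by 1.32 (adjusted p = 0.0656, same test) and AT3TE63505 by 1.04 (adjusted p = 0.0947, same test). Their cdca7b lines had 1.68 to 2.45 and 4.55 to 18.8 CPM against 2.85 to 4.48 and 11.3 to 17.9 CPM in cdca7ab, so the groups of AT3TE63505 overlapped. AT1TE66735 lost its call without cdca7ab_2 replicate 3 (0.91), cdca7b_2 replicate 2 or cdca7b_2 replicate 3, and AT2TE20870 and AT3TE63505 each lost theirs in 6 of the 9 fits that left out 1 library.

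**Figure D4:**
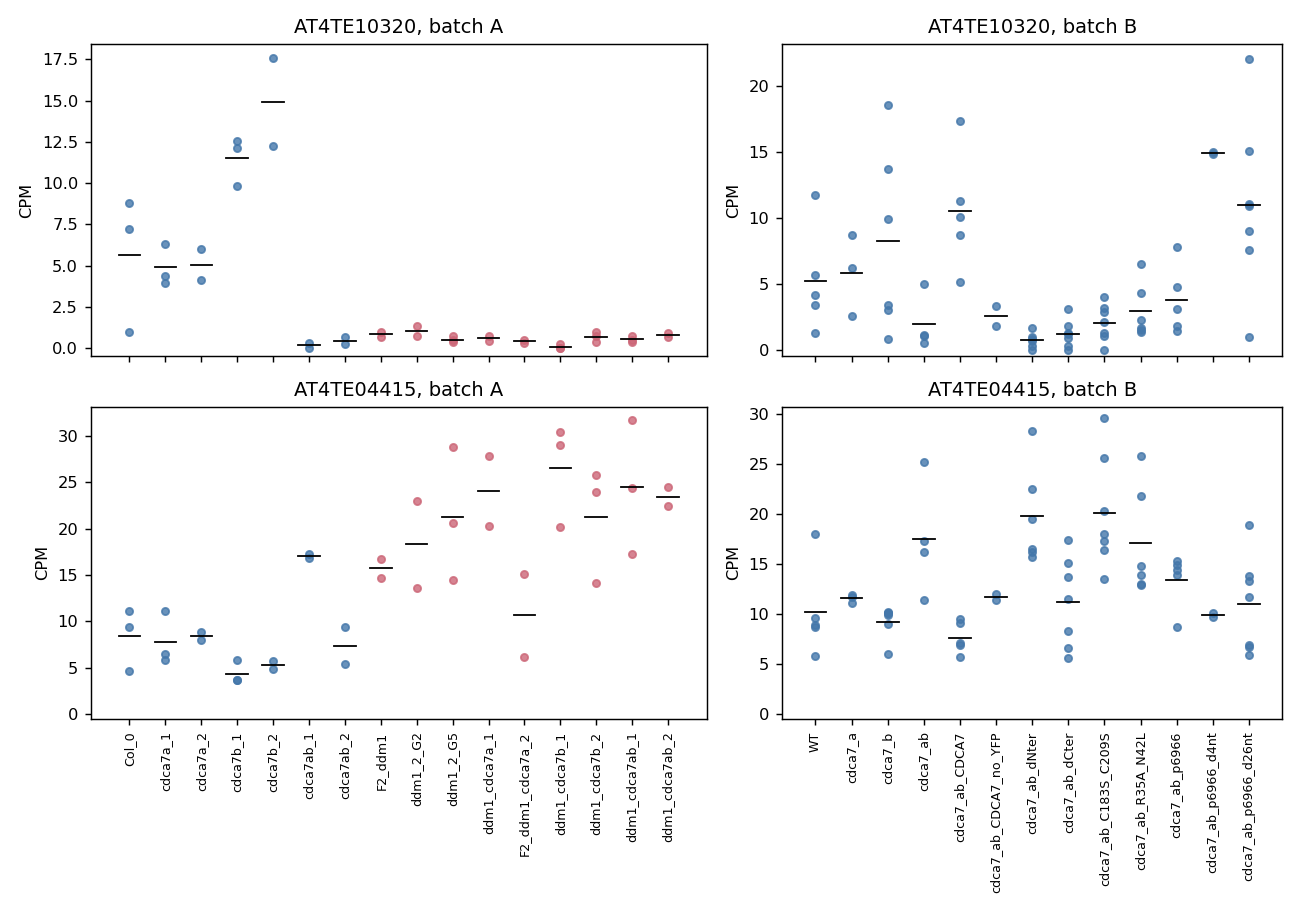
CPM (y axis) of AT4TE10320 (top) and AT4TE04415 (bottom) by genotype (x axis) in batch A (left) and in the untransformed and cdca7_ab transformant groups of batch B (right), with 1 point per library, a line at the mean, and ddm1 genotypes in red. AT4TE10320 is at 9.85 to 17.6 CPM in the cdca7b lines and at most 1.33 CPM in every genotype without DDM1, and AT4TE04415 is at 3.63 to 5.85 CPM in the cdca7b lines and up to 31.8 CPM without DDM1.

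The interaction, in which the DDM1-loss difference on the cdca7ab background was set against that on cdca7b, called 2 members higher and 1 lower of 181, with a background of 1.9% (0.167% higher and 1.73% lower). It shares its libraries with the 2 comparisons above. The raised TEs gave 78 of 127 lower. For AT4TE10320 the interaction was 6.09 (SE 0.87, adjusted p = 2.21e-05 by the edgeR quasi-likelihood test with Benjamini-Hochberg adjustment): the fitted difference with DDM1 loss was -4.96 on the cdca7b background and 1.13 on cdca7ab, where both groups had at most 4 counts per library. For AT4TE04415 it was -1.74 (SE 0.29, adjusted p = 0.000205, same test), from 2.76 on cdca7b and 1.03 on cdca7ab. AT2TE12510 gave 1.71 (SE 0.49, adjusted p = 0.0934, same test), and that call was lost in 17 of the 20 fits that left out 1 library.

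In batch B the loss of either or both CDCA7 paralogs could be set against WT plants that the rule did not use. After the count filter 156 members and 90 raised TEs were tested there. In cdca7_ab no member was called, against a background of 1.41% (1.32% higher and 0.0857% lower) of 17510 features, and 80 of the 90 raised TEs were higher. The raised TEs had a median of 0 CPM in WT and could pass the count filter through the plants in which they were high. Their calls in batch B, here and with the full-length transgene, are thus description, and no contrast with the members is drawn from them. At an unadjusted p under 0.05 there were 6 members, the smallest adjusted p was 0.629 (edgeR quasi-likelihood test, Benjamini-Hochberg adjustment), and DESeq2 called 0. The members' median log2 fold change was 0.05, and 141 of 156 (90.4%) lay within 1 log2 unit, against 93.0% of all features.

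The single mutants called no member either. In cdca7_a the background was 0.28% (0.211% higher and 0.0685% lower), 20 members had an unadjusted p under 0.05 and DESeq2 called 0. In cdca7_b the background was 0.0286% (0.0228% higher and 0.00571% lower), 8 members had an unadjusted p under 0.05 and DESeq2 called 0. These comparisons share their WT plants. For the 12 most abundant members the log2 difference between cdca7_ab and WT was between -0.42 and 0.28, with an adjusted p of 1 for each (edgeR quasi-likelihood test, Benjamini-Hochberg adjustment). A p that misses the threshold does not show equal levels: with 4 plants against 5, small changes were not detectable.

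**Figure D5:**
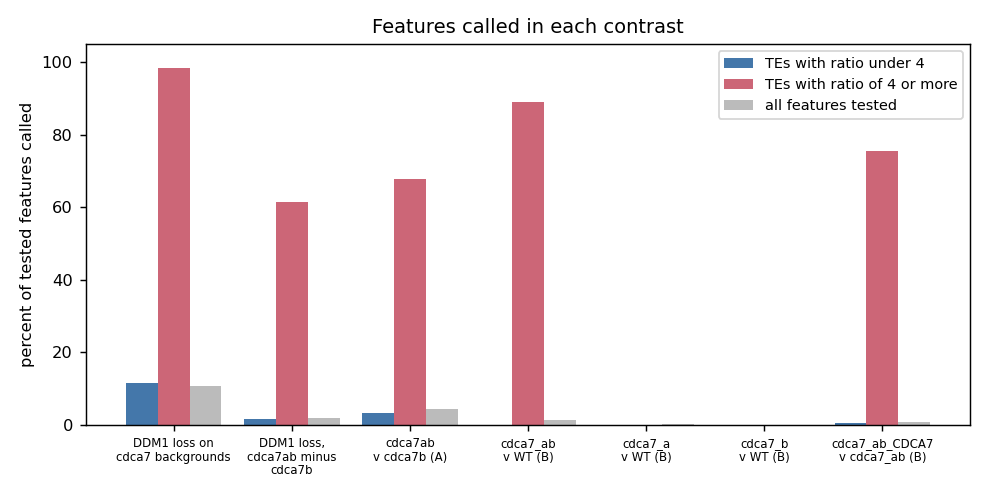
Percent of tested features called in either direction (y axis) in each of the 7 comparisons (x axis), as bars for the members (ratio under 4), the raised TEs (ratio of 4 or more) and all features tested. The members reach 11.6% with DDM1 loss on cdca7 backgrounds against 10.8% of all features, and 0% in the 3 comparisons with WT in batch B.

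AT4TE10320 and AT4TE04415 kept the order of their levels in batch B without reaching a call in cdca7_ab against WT. AT4TE10320 had 4.15, 3.35, 11.7, 5.67 and 1.23 CPM in WT and 0.475, 4.98, 1.15 and 1.04 in cdca7_ab, a log2 difference of -1.40 (adjusted p = 1 by the edgeR quasi-likelihood test with Benjamini-Hochberg adjustment) between groups that overlapped through 1 plant. The plants with the full-length transgene had 17.3, 5.14, 11.2, 8.66 and 10.1 CPM, all above the cdca7_ab plants. The difference of 2.50 (adjusted p = 0.172, same test) was not called, and without cdca7_ab replicate 3, the plant at 4.98 CPM, it was 3.61 (adjusted p = 0.0733). In the other transgene groups it had 0 to 1.66 CPM in cdca7_ab_dNter, 0 to 3.06 in cdca7_ab_dCter, 0 to 3.98 in cdca7_ab_C183S_C209S, 1.34 to 6.47 in cdca7_ab_R35A_N42L, 1.42 to 7.79 in cdca7_ab_p6966, 14.8 and 15.0 in cdca7_ab_p6966_d4nt and 0.971 to 22.1 in cdca7_ab_p6966_d26nt. The cdca7_ab_CDCA7_no_YFP plants had 1.79 and 3.34 CPM. Only the 2 cdca7_ab_p6966_d4nt plants lay, like those with the reference transgene, wholly above cdca7_ab, and these groups were not tested. The raised TEs summed to 71.2 to 84.9 CPM in WT and 2260 to 3140 in cdca7_ab. Their sums ran from 90.1 to 3141 CPM in cdca7_ab_R35A_N42L, 79.1 to 2328 in cdca7_ab_dCter and 74.4 to 2566 in cdca7_ab_p6966_d26nt. The ranges of these last groups thus join unlike plants and do not rank the constructs.

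AT4TE04415 mirrored this. It had 9.62, 8.71, 8.88, 18.0 and 5.77 CPM in WT, 25.1, 17.2, 11.4 and 16.2 in cdca7_ab, and 9.51, 9.08, 6.84, 7.03 and 5.64 with the full-length transgene. The WT and cdca7_ab groups overlapped, at a log2 difference of 0.73 (adjusted p = 0.879 by the edgeR quasi-likelihood test with Benjamini-Hochberg adjustment). The plants with the transgene all lay below those of cdca7_ab, at a difference of -1.08 (adjusted p = 0.200, same test). The cdca7_ab_dNter plants had 15.7 to 28.3 CPM and the cdca7_ab_C183S_C209S plants 13.4 to 29.5, all above the 4 WT plants other than the 1 at 18.0. Since the study found no expression of the cdca7_ab_dNter transgene, those plants do not show what removing that end of the protein does.

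Between cdca7_ab_CDCA7 and cdca7_ab plants 1 member was called, AT3TE51150, which was lower with the full-length transgene (background 0.942%, with 0.0171% higher and 0.925% lower), while 68 of the 90 raised TEs were lower. At an unadjusted p under 0.05 there were 13 members. AT3TE51150 had 39.4, 46.7, 53.9 and 61.4 CPM in cdca7_ab and 13.1, 23.4, 37.3, 12.97 and 20.7 with the transgene, groups that did not overlap. The log2 fold change was -1.11 (SE 0.27, adjusted p = 0.0293 by the edgeR quasi-likelihood test with Benjamini-Hochberg adjustment). WT had 42.8, 32.9, 56.4, 55.3 and 41.7 CPM, close to cdca7_ab, and 4 of the 5 transgene plants lay below every WT plant, a comparison that was not tested. The cdca7_ab_CDCA7_no_YFP plants had 44.6 and 50.6 CPM. Without cdca7_ab_CDCA7 replicate 4 the adjusted p was 0.112.

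Genes of the silencing pathways were read in the same fits. Of 15 such genes 14 were tested, and only VIM1, which binds hemimethylated CG sites for MET1, was called: it rose by 2.60 (SE 0.34, adjusted p = 6.81e-07 by the edgeR quasi-likelihood test with Benjamini-Hochberg adjustment) with DDM1 loss on cdca7 backgrounds. MET1 itself had a log2 difference of 0.90 (adjusted p = 0.0122, same test), under the size for a call, and ROS1, a demethylase, -0.56 (adjusted p = 0.00272, same test). None of the 14 was called in the other 6 comparisons.

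For each of the 12 most abundant members, the gene with the most similar profile was sought over the 82 batch B libraries among 16213 genes, on log2(CPM + 0.5), and its r was then read in the 39 batch A libraries. AT1TE66735 matched ALDH7B4, an aldehyde dehydrogenase, at r = 0.953 in batch B and 0.966 in batch A. AT3TE73180 matched SWEET11, a sucrose exporter of leaf veins, at 0.910 and 0.986. AT2TE37325 matched APK, an adenosine phosphosulfate kinase, at 0.890 and 0.942. In each case the gene carries the chromosome number of the TE. AT4TE29780 matched RHA1B, a RING-finger protein gene, at 0.863 and 0.919. The next gene could be close and on another chromosome: for AT1TE66735 it was AT3G03470 at 0.928 in batch B, whereas for AT3TE73180 it was AT1G50250 at 0.657.

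AT4TE74230 matched AT4G21105 at 0.867 and 0.929. AT3TE37080 matched AT3G24420 at 0.795 and 0.947. AT4TE42895 matched AT4G16880 at 0.740 and 0.929. AT3TE07760 matched AT3G06125, a noncoding RNA gene, at 0.653 and 0.927. These pairs also agree in chromosome number. The remaining 4 matches were weaker in batch A: NF-YA4 for AT3TE69475 (0.864 and 0.643), AT5G56140 for AT2TE16945 (0.765 and 0.398), AT1G12250 for AT3TE77415 (0.626 and 0.699) and AT4G03420 for AT4TE42860 (0.726 and -0.19). Of these only AT4G03420, the gene with the negative r, shares the chromosome number of its TE. All these correlations share library depth and plant, and no position of a TE relative to a gene was read here.

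Most members had no such close match. The highest r in batch B had a median of 0.627 over the 156 members tested there. It was over 0.8 for 26 of them. The gene with the highest r lay on the TE's own chromosome for 47 (30.1%) in batch B and for 49 (31.4%) in batch A, where 20.3% would follow from the spread of genes over chromosomes. For the 90 raised TEs the shares were 24.4% and 14.4%. Their highest r in batch B had a median of 0.918 and was over 0.8 for 80 of them. These TEs could pass the count filter through the plants in which they were high. Their values are thus description, and no contrast with the members is drawn from them. The best gene was the same in both batches for 18 members, and for 13 of those 18 it lay on the TE's chromosome. Of the other 5 members, 4 matched AT5G18610, a gene on a chromosome other than theirs. Chosen after their values were seen as pairs with a high r on 1 chromosome, AT2TE25440 matched PR1, a marker of salicylic acid signalling, at 0.947 in batch B and 0.969 in batch A, and AT3TE41165 matched PAD3, an enzyme of camalexin synthesis, at 0.841 and 0.945. AT2TE09345 matched AT2G05540 at 0.973 and 0.940, and AT1TE34435 matched AT1G30250 at 0.891 and 0.979.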

How the data were processed

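The authors collapsed 3′-tag reads by unique molecular identifier, mapped them with STAR 2.7.11a to TAIR10 and estimated counts with Salmon 1.10.1 for AtRTD3 transcripts and TAIR10 TEs. The deposited tables hold estimated counts on the sense strand for 121 libraries. The authors also deposited RPM tables, treated here as signal, of which only the antisense values were used, as above 0 or not. TEs that overlap genes, which the study left out, were kept, and neither positions nor sequences of TEs were read.

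Estimated counts were summed per locus and rounded. Features with at least 10 counts in at least 3 libraries were fitted per batch with edgeR 4.0.16 in R 4.3.3 (TMM normalization, quasi-likelihood test, 1 coefficient per genotype, Benjamini-Hochberg adjustment over all features), with calls where the adjusted p did not exceed 0.1 and the features differed by 1 log2 unit or more. The SE of a log2 fold change was its absolute value over the square root of the F statistic. CPM was computed from unrounded counts over the library total. The code was tested on simulated data. Groups came from the labels, and p-values measure the spread between pools (batch A) or plants (batch B). Named members were the 12 highest in batch B WT, up to 8 called per comparison with the largest fold change, 3 TEs on each side of the ratio threshold, the 3 lowest ratios, and the most similar gene of each of the 12. Alternatives were RLE scaling, no organelle transcripts, no count filter, the replicate block, only the compared groups, DESeq2 1.42.0, an adjusted p of 0.05, other forms of the ratio and leaving out each library, and, after seeing the data, leaving out a library with seed transcripts or 4 libraries with over 30% plastid counts. The members and lists were chosen with earlier results of these data known.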

Additional observations from a re-analysis of the deposited data

Results flagged for a closer look

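In batch B, 60 groups of values were examined (WT, cdca7_ab, cdca7_b and cdca7_ab_CDCA7 for the 12 most abundant members and for AT4TE10320, AT4TE04415 and AT3TE51150), and 5 held a plant far from the others of its group, and chance alone sets apart about 1 group in 20. For AT4TE42895 it was cdca7_b replicate 1, the highest of 6 plants at 146 CPM. For AT3TE69475 it was cdca7_ab replicate 5, the highest of 4 at 86.5 CPM, and for AT4TE42860 cdca7_ab_CDCA7 replicate 1, the lowest of 5 at 43.1 CPM. AT4TE10320 in cdca7_ab replicate 3 was the highest of 4 at 4.98 CPM, the plant on which the comparison with the full-length transgene turns. AT4TE04415 in cdca7_b replicate 5 was the lowest of 6 at 5.94 CPM.

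For 3 members the effect of DDM1 loss differed between the cdca7ab and the cdca7b backgrounds by the interaction test (edgeR quasi-likelihood test with Benjamini-Hochberg adjustment). The differences were 6.09 for AT4TE10320 (adjusted p = 2.21e-05), -1.74 for AT4TE04415 (adjusted p = 0.000205) and 1.71 for AT2TE12510 (adjusted p = 0.0934).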

How the results depend on the processing

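No called value turned its direction under any alternative computed. Values near 0 that were not called did: AT4TE74230 with DDM1 loss (0.02) ran from -0.04 to 0.09, and in cdca7_ab against WT AT4TE74230, AT2TE16945, AT3TE73180, AT4TE42860, AT3TE77415 and AT3TE07760 crossed 0 within -0.21 to 0.16. The members' medians for the interaction and for the comparisons with WT in batch B also crossed 0, within -0.13 to 0.09. The number of members was 174 with a ratio under 2, 126 with at least 4 counts in all 3 Col_0 libraries and 173 to 178 when a Col_0 library was left out. For DDM1 loss on cdca7 backgrounds, leaving out 1 library gave 5 to 9 members higher (7 with all) and 9 to 17 lower (14 with all), the 9 without cdca7b_1 replicate 1, and without the plastid-rich libraries 9 were higher and 12 lower. For the interaction, the 2 members higher became 1 without organelle transcripts, 6 without the count filter, 1 at an adjusted p of 0.05, 1 without the plastid-rich libraries and 1 to 2 when a library was left out, and the 1 lower became 3 without the filter and 1 to 2 when a library was left out. For cdca7ab against cdca7b, the 4 higher became 10 without the filter, 2 with only the compared groups, 2 at an adjusted p of 0.05, 2 without the plastid-rich libraries and 1 to 6 when a library was left out, and the 2 lower became 5, 1 with only the compared groups, 1 without the plastid-rich libraries and 1 to 4. In batch B, cdca7_a against WT gave 1 higher with only the compared groups. The full-length transgene gave 0 to 1 higher and 0 to 1 lower when a plant was left out, the 1 higher without cdca7_ab replicate 3 and the 0 lower without cdca7_ab_CDCA7 replicate 4, and 2 lower with DESeq2. The 2 other comparisons with WT stayed at 0. Beyond the fewer samples or the change in the features tested, the cause was not tested. Replicate numbers were not a pairing: deviations of same-numbered libraries had a mean correlation of 0.00082 in batch A (42 of 128 pairs over 0.1) and 0.017 in batch B (9 of 38), and the replicate block gave 23 calls for DDM1 loss against 21, and 3, 6, 0, 0, 0 and 1 in the others. Depth limits the members under 1 CPM most, where a handful of molecules separates a call from none.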
